A study of Rattus norvegicus with 32 samples.

Results

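Cyclic AMP carries signals from receptors at the cell surface to protein kinase A (PKA) and on to transcription. The genes described here are 10 members of this route: the adenylyl cyclases Adcy2 and Adcy9, the PKA subunits Prkaca, Prkar1a and Prkar2b, the A-kinase anchoring proteins Akap4 and Akap10, the transcription factors Creb1 and Crem, and the phosphodiesterase Pde4b. They were chosen by gene symbol, as the probes that the array's platform annotation pairs with one of these names, which gives 10 of 12573 named genes and 17 probes. Their RNA was measured in hippocampal CA3 pyramidal neurons taken by laser capture from adult male Sprague-Dawley rats after fluid percussion traumatic brain injury (TBI). Only neurons that Fluoro-Jade, a stain for degenerating neurons, had left unstained were captured, so the values are those of surviving cells.

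At each of 2 times, 4 h and 24 h, there were 4 groups: TBI with metyrapone (TBI+MT, 100 mg/kg), TBI with carbenoxolone (TBI+CB, 30 mg/kg), TBI with saline (TBI) and sham injury (sham). Metyrapone inhibits glucocorticoid synthesis, and carbenoxolone inhibits the hydroxysteroid dehydrogenase that regenerates active glucocorticoid. The labels put the injection 90 min before TBI, count the times from treatment, give 3 to 6 rats per pool and mark the 4 h sham rats as untreated. The methods differ from them in the interval, the rats per pool and the saline given to sham rats. Each group had 2 pools of RNA, each amplified for 2 rounds and hybridised to duplicate arrays, so 16 pools and 32 arrays stand behind the values and n is 2 pools throughout. A level is the spot intensity divided by the median of its array, averaged over the duplicates.

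In neurons, adenylyl cyclases make cyclic AMP from ATP, phosphodiesterases such as Pde4b break it down, and its binding to the regulatory subunits of PKA frees the catalytic subunit. Anchoring proteins hold PKA near its substrates. Free catalytic subunit phosphorylates CREB, encoded by Creb1, which binds cyclic AMP response elements (CREs) in its target genes. In the hippocampus this route is known for its part in synaptic plasticity, long-term memory and the activity-dependent transcription of immediate early genes.

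The share of probes above background per array ran over 26.1 to 65.9%, and the array medians ranged over 9.41 to 67.1 raw units. Pool 1 of TBI+MT and pool 2 of TBI+CB at 24 h were the dimmest, with mean medians of 10.1 and 9.53. Pool 2 of TBI at 4 h held the highest of the 16 values for 34.6% of the probes tested, and pool 1 of TBI+MT at 24 h the lowest for 35.9%. Of the pyramidal neuron markers, 4 of the 5 on the array passed the background filter. Their summed level at 4 h was 251 to 271 in TBI+MT, 241 to 283 in TBI+CB, 276 to 315 in TBI and 254 to 301 in sham pools. Astrocyte markers (7 of 8 passing) summed to 154 to 268 in TBI+MT, 315 to 320 in TBI+CB, 351 to 687 in TBI and 228 to 441 in sham pools at 4 h, and microglia markers (8 of 9 passing) to 24.7 to 28.4, 29.2 to 37.6, 39.1 to 53.1 and 52.1 to 141 in the same order of groups. At 24 h, in that order of groups, pyramidal markers summed to 143 to 223, 86.8 to 249, 172 to 261 and 281 to 288. Astrocyte markers then summed to 118 to 208, 140 to 349, 149 to 219 and 203 to 244. Microglia markers summed to 69.3 to 97.5, 115 to 123, 91.3 to 114 and 31.8 to 57.8. Genes of other cell types were thus present in these pools, and the part of cell types in the results below was not tested. In pooled RNA, fewer cells of a type and less RNA per cell cannot be told apart.

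To be tested, a probe had to exceed background on every array of some group, which means 4 arrays. This kept 9 of the 17 member probes, on 7 of the 10 genes, and 6 of these 9 were above background on all 32 arrays. The probes of Prkaca, Akap10 and the weaker probe of Prkar1a were above background on 27, 29 and 31 arrays. No probe of Prkar2b, Creb1 or Crem passed. In the limma fit across all probes tested, with adjustment by the Benjamini-Hochberg procedure and a threshold of 0.05, none of the 9 member probes was called in any of the 8 comparisons between groups, in the differences between the times or in the test over the 8 groups, and 0.0% of all probes were called in each. Differences below are therefore given as values with their standard errors (SE), and all of them missed the threshold.

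The adenylyl cyclase Adcy9 was measured in every pool. At 4 h its levels were 157 and 134 in TBI+MT pools, 194 and 188 in TBI+CB pools, 170 and 40.0 in TBI pools, and 124 and 101 in sham pools. The TBI pools lay on both sides of the TBI+MT and sham pools, and the TBI+CB pools were the highest of all 16. TBI+CB minus TBI at 4 h was 1.21 on the log2 scale (SE 0.70, adjusted p = 0.957), and this value was 2.26 without pool 1 and 0.17 without pool 2 of TBI. The value thus rests on the 40.0 of that pool. TBI+MT minus TBI was 0.81 (SE 0.70, adjusted p = 0.736), and turned to -0.24 without the same pool. TBI minus sham was -0.44 (SE 0.70, adjusted p = 0.936), with -1.48 without pool 1 and 0.61 without pool 2 of TBI. At 24 h Adcy9 averaged 67.7 ± 18.7 in TBI+MT, 83.0 ± 44.0 in TBI+CB, 102 ± 55.2 in TBI and 128 ± 43.1 in sham (SD, n = 2 pools each), and the pools of neighbouring groups overlapped.

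Adcy2, a cyclase known to be stimulated by G protein beta-gamma subunits, has 2 probes, of which only GE1174680 was above background. Its levels at 4 h were 10.05 and 34.9 in TBI+MT pools, 26.9 and 32.0 in TBI+CB pools, 27.1 and 47.3 in TBI pools, and 17.7 and 35.0 in sham pools, so every group overlapped sham. At 24 h they were 6.65 and 19.7 in TBI+MT pools, 47.8 and 22.9 in TBI+CB pools, 16.8 and 18.6 in TBI pools, and 21.9 and 9.55 in sham pools. Both TBI+CB pools lay above the other 6 pools of that time. TBI+CB minus TBI at 24 h was 0.90 (SE 0.75, adjusted p = 0.700), and TBI+MT minus TBI+CB was -1.53 (SE 0.75, adjusted p = 0.786), or -0.74 without the dim pool 1 of TBI+MT. The other probe, GE19744, was above background on none of the 32 arrays.

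Among the PKA subunits, Prkar1a, the type I regulatory subunit that holds the kinase inactive, was above background everywhere with probe GE1122559. Its levels at 4 h were 205 and 287 in TBI+MT pools, 357 and 283 in TBI+CB pools, 320 and 552 in TBI pools, and 281 and 321 in sham pools. Pool 2 of TBI stood above the other 7, whereas pool 1 lay within the sham range. TBI minus sham was 0.48 (SE 0.58, adjusted p = 0.936), or 0.88 without pool 1 and 0.09 without pool 2 of TBI. Both TBI+MT pools lay below both TBI pools, with a difference of -0.79 (SE 0.58, adjusted p = 0.736), or -1.18 and -0.40 without the same pools. The weaker probe GE21757 gave 0.68 and -0.82 for these comparisons, correlated with the first at r = 0.81 over the 16 pools, and had the same sign in 7 of the 8 comparisons. The last probe of the gene, GE1170510, was above background on none of the arrays. At 24 h GE1122559 averaged 232 ± 158 in TBI+MT, 274 ± 108 in TBI+CB, 214 ± 2.85 in TBI and 252 ± 82.9 in sham (SD, n = 2 pools each), and no group stood apart.

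Prkaca encodes the catalytic subunit alpha, which phosphorylates CREB. Its levels at 4 h were 1.95 and 6.67 in TBI+MT pools, 5.17 and 3.94 in TBI+CB pools, 6.10 and 5.07 in TBI pools, and 2.90 and 4.15 in sham pools. Both TBI pools lay above both sham pools, with a difference of 0.68 (SE 1.05, adjusted p = 0.936). At 24 h it was not above background on either array in pool 1 of TBI+MT or in pool 2 of TBI+CB, and on 1 of 2 arrays in pool 2 of sham. The measured levels there were 0.94, 0.50 and 2.31, against 4.76 and 5.85 in the other pools of the same drug groups. The wide spread within these groups at 24 h thus falls on the 2 dimmest pools.

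Prkar2b, the type II beta regulatory subunit common in brain, was above background on none of the 32 arrays. Its pools ranged over 0.14 to 0.78 of the array median, and the lowest level called above background in a pool ranged over 0.33 to 1.95. No fold is given for it.

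Of the anchoring proteins, Akap4 is best known from the fibrous sheath of the sperm tail, and Akap10 binds regulatory subunits of both PKA types. The study placed both in its own PKA list, which it chose on these samples, so their direction here is not independent evidence. Akap4 was above background on all arrays, with 5.92 and 7.20 in TBI+MT pools, 10.8 and 7.75 in TBI+CB pools, 7.90 and 20.6 in TBI pools, and 4.35 and 7.87 in sham pools at 4 h. Pool 2 of TBI was the highest of the 16, and pool 1 lay just above the higher sham pool. TBI minus sham was 1.12 (SE 0.63, adjusted p = 0.936), which was 1.82 without pool 1 and 0.43 without pool 2 of TBI. For TBI+MT minus TBI the value was -0.96 (SE 0.63, adjusted p = 0.736), or -1.66 without pool 1 and -0.27 without pool 2 of TBI, and TBI+CB minus TBI was -0.48 (SE 0.63, adjusted p = 0.957). At 24 h 7 of the 8 pools lay between 5.78 and 9.92, and pool 1 of TBI+MT was at 3.16.

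Akap10 had the smallest p of all members over the 8 groups (unadjusted p = 0.0627 and adjusted p = 0.858 by limma's F). At 4 h its levels were 2.10 and 4.06 in TBI+MT pools, 3.84 and 3.36 in TBI+CB pools, 2.60 and 5.53 in TBI pools, and 1.31 and 1.98 in sham pools. All 6 injured pools lay above both sham pools. TBI minus sham was 1.24 (SE 0.69, adjusted p = 0.936), or 1.78 without pool 1 and 0.69 without pool 2 of TBI. At 24 h the levels were 0.37 and 1.4997 in TBI+MT pools, 2.55 and 1.77 in TBI+CB pools, 3.33 and 3.43 in TBI pools, and 4.45 and 2.35 in sham pools. Both TBI+MT pools lay below the other 6, and pool 1, the dim one, was not above background on either array. The difference from TBI was -2.18 (SE 0.69, unadjusted p = 0.00820 and adjusted p = 0.746), and -1.17 without that pool. TBI+MT minus TBI+CB at 24 h was -1.51 (SE 0.69, unadjusted p = 0.0489 and adjusted p = 0.786), and -0.50 without it. In these 2 comparisons 1 of the 9 member probes had an unadjusted p under 0.05, beside 5.51 and 5.07% of all probes.

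Pde4b, a cyclic AMP phosphodiesterase that ends the signal, had 3 probes, of which GE12557 and GE1225576 were above background on all 32 arrays. The levels of GE12557 at 4 h were 24.9 and 85.8 in TBI+MT pools, 39.7 and 61.0 in TBI+CB pools, 74.2 and 108 in TBI pools, and 36.0 and 40.0 in sham pools. Both TBI pools lay above both sham and both TBI+CB pools, and the TBI+MT pools lay on both sides of the sham pools. TBI averaged 91.0 ± 23.8 and sham 38.0 ± 2.82 (SD, n = 2 pools each), a difference of 1.24 on the log2 scale (SE 0.88, adjusted p = 0.936). It was 1.51 without pool 1 and 0.97 without pool 2 of TBI. Against TBI, TBI+MT was at -0.95 (SE 0.88, adjusted p = 0.741) TBI+CB at -0.86 (SE 0.88, adjusted p = 0.957). The probe GE1225576 gave 1.24, -1.03 and -0.85 for the same comparisons, and the probes correlated at r = 0.999 over the 16 pools. The remaining probe, GE21710, was above background on none of the arrays, so the 3 probes of this gene disagreed in whether it was measured at all.

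At 24 h Pde4b (GE12557) was at 6.23 and 48.4 in TBI+MT pools, 60.1 and 31.6 in TBI+CB pools, 19.2 and 25.2 in TBI pools, and 39.4 and 17.7 in sham pools. The 2 TBI pools lay within the sham range, and TBI minus sham was -0.26 (SE 0.88, adjusted p = 1.00). The effect of TBI at 24 h minus that at 4 h was -1.4998 (SE 1.25, adjusted p = 1.00), so a difference between the times was not called. Both TBI+CB pools lay above both TBI pools at 24 h (0.98, SE 0.88, adjusted p = 0.715), which is the opposite order from 4 h. TBI+CB minus TBI at 24 h minus that at 4 h was 1.85 (SE 1.25, adjusted p = 0.574).

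**Figure D1:**
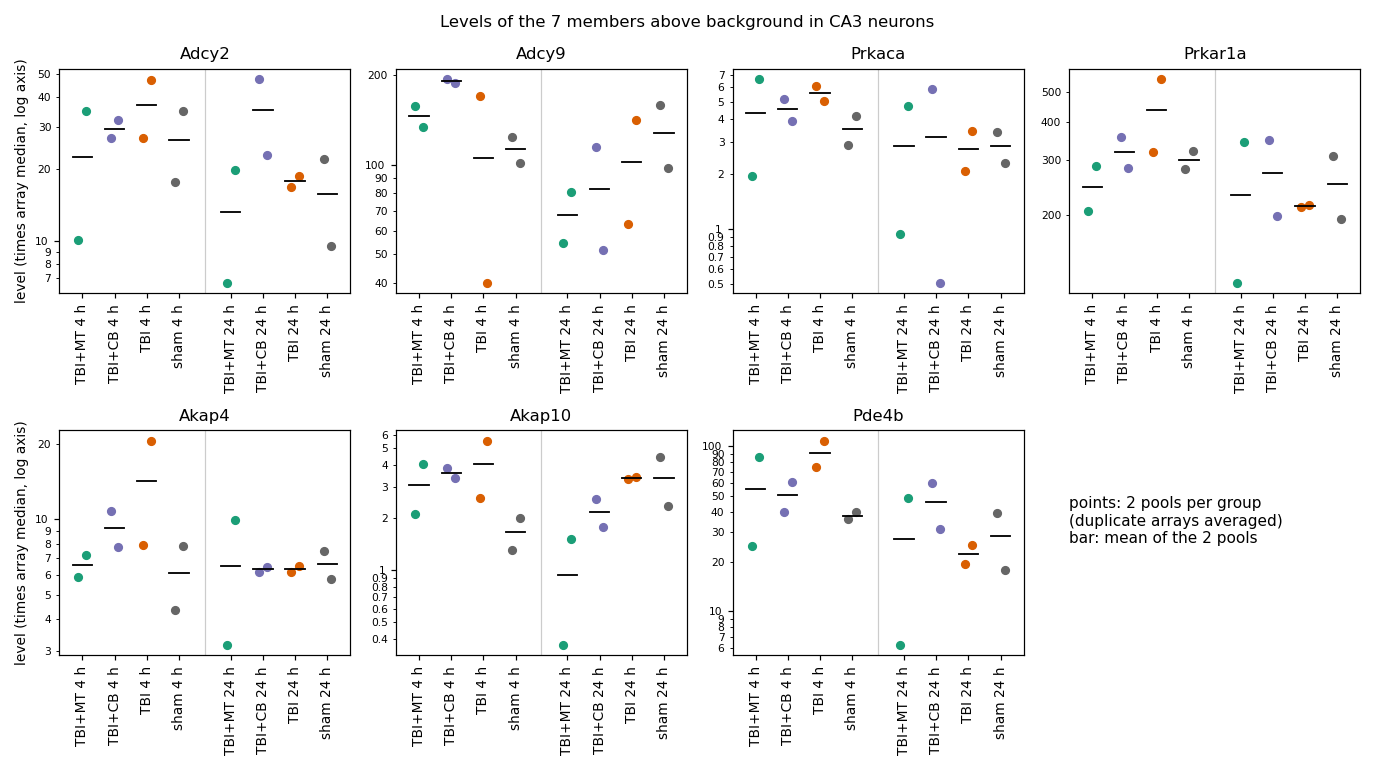
Level of the 7 members above background in each of the 16 pools (points, in multiples of the array median, log axis), with the mean of the 2 pools of a group as a bar; 1 probe stands for each gene. The TBI pools of Pde4b at 4 h sit at 74.2 and 108, above the sham pools at 36.0 and 40.0, and pool 1 of TBI+MT at 24 h is the lowest point for Adcy2, Prkar1a, Akap4, Akap10 and Pde4b.

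At 4 h, 6 of these 7 genes had a higher mean log2 level in TBI than in sham, beside 69.1% of all probes, and the exception was Adcy9. Their median difference was 0.68, beside 0.33 over all probes. For 6 of the 9 member probes both TBI pools lay above both sham pools, beside 36.4% of all probes. Both probes of Pde4b and the weaker one of Prkar1a are among these. With 1 probe standing for each gene, it was so of 4 of the 7 genes. After quantile normalization, which makes the distributions of all arrays equal, the members' median was 0.34 and that of all probes 0.03. At 24 h no member probe had both TBI pools above both sham pools, beside 13.1% of all probes, and the members' median was -0.06.

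At 4 h TBI+MT minus TBI was below 0 for 6 of the 7 genes, with Adcy9 as the exception, where 29.6% of all probes were above 0. The median of the 7 genes was -0.79, beside -0.40 over all probes. Only 2 of the 9 member probes, those of Prkar1a and Akap4, had both TBI+MT pools below both TBI pools, beside 33.6% of all probes. For TBI+CB the median was -0.30, beside -0.28 over all probes, and 3 of the 9 member probes lay wholly below TBI, beside 34.6%. These were both probes of Pde4b and the weaker one of Prkar1a. After quantile normalization the members' medians were -0.28 for TBI+MT and 0.02 for TBI+CB. Both drug comparisons use the same TBI pools. At 24 h the members' median was -0.34 for TBI+MT, with 1 of 9 probes wholly below TBI beside 28.6% of all probes. For TBI+CB it was -0.0007, with 3 of 9 probes wholly above TBI beside 15.9%. These were both probes of Pde4b and that of Adcy2, so only 2 genes.

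The file headers give slide numbers that fall into 3 runs. At 4 h both sham pools and pool 1 of TBI share run 1, and pool 2 of TBI shares run 2 with all pools of the drug groups. Within run 1, TBI minus sham was 0.97 for Pde4b, 0.69 for Akap10, 0.43 for Akap4, 0.82 for Prkaca, 0.09 for Prkar1a, 0.12 for Adcy2 and 0.61 for Adcy9, and a fit with the run as a block gave the same values. Within run 2, TBI+MT minus TBI was -1.22 for Pde4b, -1.66 for Akap4, -1.18 for Prkar1a, -1.34 for Adcy2, -0.92 for Akap10, -0.49 for Prkaca and 1.85 for Adcy9. For TBI+CB the same list read -1.13, -1.17, -0.80, -0.69, -0.62, -0.17 and 2.26. With the run as a block, the median over all probes at 4 h was 0.20 for TBI minus sham. It was -0.58 for TBI+MT minus TBI and -0.39 for TBI+CB minus TBI. The values within a run rest on 1 TBI pool each. In run 2 this is pool 2, which held the highest level of all pools for 34.6% of the probes tested. The drug groups at 24 h make up run 3 alone, so run and drug cannot be told apart there.

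**Figure D2:**
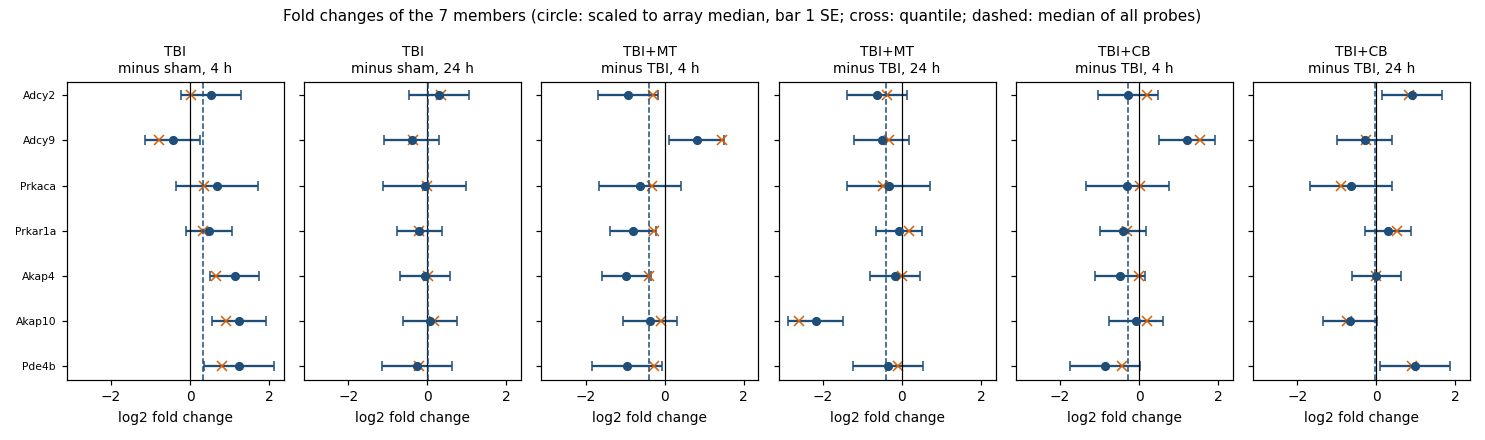
Log2 fold change of the 7 members in 6 comparisons (circles, with 1 SE as bars), the same after quantile normalization (crosses), and the median of all probes tested (dashed line). None of the values was called, and Akap10 in TBI+MT minus TBI at 24 h, at -2.18, lies farthest from 0.

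The transcription factors of the route were at the limit of the arrays. Creb1 had 3 probes, of which GE1105222 and GE1228833 were above background on none of the 32 arrays. GE22111 was above background on 9 arrays, and on both arrays of 3 pools: pool 1 of TBI+CB at 24 h (level 0.70), pool 1 of TBI at 4 h (0.51) and pool 1 of sham at 4 h (1.07). These are 3 of the 4 pools with the highest array medians. Within each of these groups the other pool was not above background, so no difference between groups was measured. Crem, which encodes activators and repressors that bind CREs, had 1 probe, and its pools ranged over 0.11 to 0.52 of the array median with none above background. A level below background gives no evidence that a transcript is absent.

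**Figure D3:**
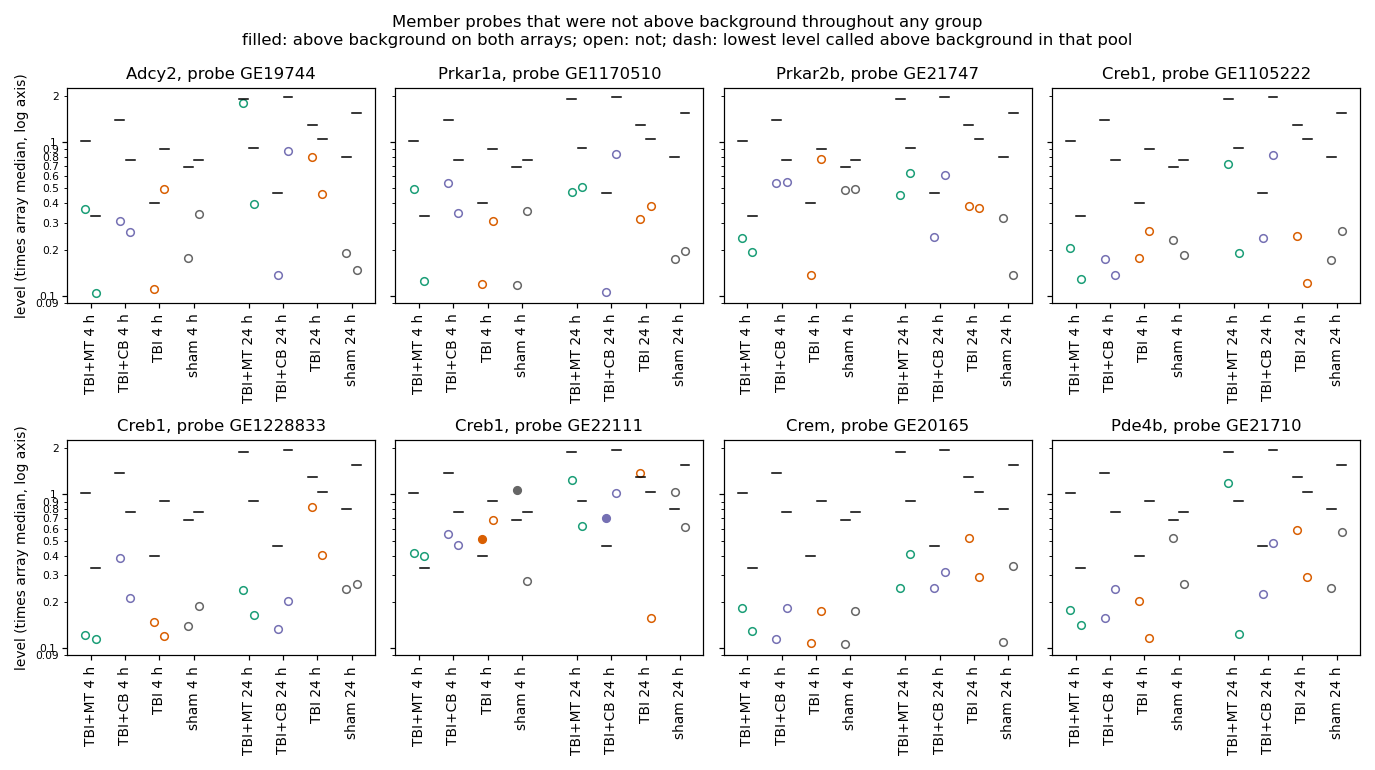
Level of the 8 member probes that were not tested in each pool (multiples of the array median, log axis), filled where both arrays were above background and open where not, with the lowest level called above background in that pool as a dash. Only GE22111 of Creb1 has filled points, at 0.70, 0.51 and 1.07.

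Because CREB binds CREs, the promoters of the members in RefSeq (rat build GRCr8, 300 bases around each start, most of them upstream) were searched for the full element TGACGTCA and for its shorter core TGACG, both on either strand. All 10 genes have at least 1 of 14 promoters. Crem was the only member with a full element, with 1 and 2 copies at 2 of its 3 starts, whereas 1.83% of all 33469 promoters hold one. The core was in 6 of the 14 promoters, of Crem, Creb1, Prkaca and Adcy9, beside 21.2% of all promoters; each full element holds 2 overlapping cores, 1 per strand. The promoters of Adcy2, Prkar1a, Prkar2b, Akap4, Akap10 and Pde4b hold neither in this window. The probes carry no coordinates, so which start gave the measured RNA is not known. The promoters with full elements and the Creb1 promoter with 3 cores are shown because these are the places where the letters that CREB reads occur in its own family, with cores and full elements in capitals:
Crem promoter with 1 full element, chr17:58984547-58984846 (plus strand): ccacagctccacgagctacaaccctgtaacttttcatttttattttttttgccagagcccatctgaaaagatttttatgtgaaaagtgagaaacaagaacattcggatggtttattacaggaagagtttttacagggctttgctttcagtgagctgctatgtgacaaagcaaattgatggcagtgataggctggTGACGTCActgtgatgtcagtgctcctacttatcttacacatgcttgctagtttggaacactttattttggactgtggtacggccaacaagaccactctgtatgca
Crem promoter with 2 full elements, chr17:58985240-58985539 (plus strand): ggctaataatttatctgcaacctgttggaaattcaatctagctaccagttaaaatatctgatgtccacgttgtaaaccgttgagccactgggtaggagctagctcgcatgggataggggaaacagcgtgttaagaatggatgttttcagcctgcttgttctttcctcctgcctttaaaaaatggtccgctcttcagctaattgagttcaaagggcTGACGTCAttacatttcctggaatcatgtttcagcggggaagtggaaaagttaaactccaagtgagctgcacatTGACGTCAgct
Creb1 promoter with 3 cores, chr9:73397259-73397558 (plus strand): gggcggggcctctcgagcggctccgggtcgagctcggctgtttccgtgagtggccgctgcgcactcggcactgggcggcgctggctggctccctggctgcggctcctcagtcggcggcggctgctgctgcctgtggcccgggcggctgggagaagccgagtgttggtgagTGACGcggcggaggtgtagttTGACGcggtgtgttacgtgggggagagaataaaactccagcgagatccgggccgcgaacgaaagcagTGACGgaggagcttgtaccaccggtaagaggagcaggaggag
The presence of these letters is a description of the sequence, and neither gene could be compared between groups.

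Beyond the members, 127 genes in 10 lists cover the route from receptors to CREB targets. The array holds 115 of them and 69 passed the filter, among them the 7 members. None was called by limma in any of the 8 comparisons. In these, 1 to 5 of the 69 had an unadjusted p under 0.05, beside 1.84 to 8.22% of all probes. At 4 h the TBI minus sham value was above 0 for 50 of the 69 and below 0 for 19, beside 69.1% of all probes above 0. The median was 0.42 beside 0.33 over all probes. The median of TBI+MT minus TBI was -0.61 beside -0.40, and that of TBI+CB minus TBI was -0.19 beside -0.28. From each list the genes with the smallest p on each side are given. Where a gene was not above background on all 4 arrays of a group, its level there is only the measured signal, so its fold and p do not compare measured levels and support nothing. Among the genes named below, this was so at 4 h of Gnal, Camk1 and Penk in all 3 injured groups, and of Adcy4 and Pde1a in TBI+CB and TBI. It was also so of Sik1 in TBI+MT, TBI and sham, of Gem and Akap12 in TBI+MT and sham, and of Sst in both drug groups. The same held for Adora2b and Hcn3 in TBI+CB and for Dusp1 in TBI+MT.

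At the start of the route, only 5 of 15 Gs-coupled receptors on the array passed. Adora2b, an adenosine receptor, gave 0.31 (SE 0.48) and Vipr2, a receptor of vasoactive intestinal peptide, gave -0.81 (SE 0.96) for TBI minus sham at 4 h. Glp1r gave 0.26 (SE 0.49) and Vipr1 -0.14 (SE 0.54) for TBI+MT minus TBI, and Glp1r gave 0.67 (SE 0.49) for TBI+CB minus TBI. In that last comparison all 5 receptors were above 0, beside 36.7% of all probes. Of these 5, Adora2b was not above background on all arrays of TBI+CB. Among the G protein alpha subunits (6 of 7 passing), Gnal, which stimulates cyclases, gave -1.31 (SE 0.61) and Gnaz, which inhibits them, 0.54 (SE 0.74) for TBI minus sham. Gnas, the main stimulatory subunit, gave -0.87 (SE 0.68) for TBI+MT and -0.89 (SE 0.68) for TBI+CB against TBI, while Gnao1 gave 1.01 and 0.54 (SE 0.95 each). The medians of both lists for TBI minus sham were -0.08 and -0.13, beside 0.33 over all probes. Over the 5 alpha subunits above background on all arrays of both groups, which leaves out Gnal, the median was 0.26.

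Of the cyclases, 6 of 9 passed. Adcy4 was not above background on all arrays of TBI or TBI+CB at 4 h, so its folds do not compare measured levels. Adcy3 gave 0.75 (SE 0.79) and Adcy4 -0.87 (SE 1.13) for TBI minus sham at 4 h, Adcy4 1.78 (SE 1.13) and Adcy5 -0.81 (SE 0.59) for TBI+MT minus TBI, and Adcy4 -0.98 (SE 1.13) for TBI+CB minus TBI. Besides Prkaca and Prkar1a, the PKA list (5 of 9 passing) held Prkar1b, a neuronal type I regulatory subunit, at 0.72 (SE 0.44) for TBI minus sham and 0.29 for TBI+CB minus TBI. Pkig, a PKA inhibitor, was at -0.43 (SE 0.47) for TBI minus sham and -0.80 (SE 0.47) for TBI+MT minus TBI. All 5 genes of that list were below 0 in TBI+MT minus TBI, where only 29.6% of all probes were above 0. Of the 5 genes, 4 were above background on all arrays of both groups.

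Of the anchoring proteins, with Akap4 and Akap10 among them, 10 of 11 were higher in TBI than in sham at 4 h, 3 of them over 2-fold. Of all probes, 69.1% were higher and 15.9% over 2-fold higher. The list median was 0.56 beside 0.33 over all probes. Of the 10 anchoring proteins above background on all arrays of both groups, 9 were higher and 3 over 2-fold higher, with a median of 0.74. Akap8l, a nuclear anchoring protein, was the exception at -0.57 (SE 0.55). In TBI+MT minus TBI 10 of 11 were below 0, with a median of -0.96 beside -0.40 and Akap3, another sperm sheath protein, at -1.20 (SE 0.59), whereas Akap8l was at 0.53. Of the 9 above background on all arrays of both groups, 8 were below 0, also with a median of -0.96. Of all probes, 29.6% were above 0 in this comparison and 36.7% in TBI+CB minus TBI. In TBI+CB minus TBI 8 of 11 were below 0, with Akap3 at -1.36 (SE 0.59, unadjusted p = 0.0419 and adjusted p = 0.957) and Akap12 at 0.46. After quantile normalization the list medians were 0.44 for TBI minus sham, -0.40 for TBI+MT minus TBI and -0.02 for TBI+CB minus TBI.

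Of the phosphodiesterases, 6 of 16 passed. Pde1a, which is stimulated by calcium and calmodulin, gave -1.91 (SE 0.79) for TBI minus sham at 4 h. It was not above background in pool 2 of TBI. TBI+MT minus TBI was 1.57 (SE 0.79). In TBI+CB Pde1a was below background on all 4 arrays. In TBI 2 of 4 arrays were above background, both of pool 1, so only 1 pool was measured and no fold is given for TBI+CB minus TBI. Of the other phosphodiesterases, Pde10a gave 0.72 (SE 0.60) for TBI+CB. Of the other cyclic AMP effectors, Rapgef4, an exchange factor for Rap, gave 0.56, -0.92 and -0.92 (SE 0.89 each) in the 3 comparisons in turn. The channels Hcn3 and Hcn4 gave -0.07 (SE 0.81) for TBI minus sham and 0.34 (SE 0.60) for TBI+CB minus TBI.

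Of the CREB family and its coactivators, 6 of 12 on the array passed. Atf4, a stress-responsive relative of CREB, gave 0.96 (SE 0.98) for TBI minus sham, -1.67 (SE 0.98) for TBI+MT and -0.82 (SE 0.98) for TBI+CB against TBI. The coactivator Ep300 gave -0.04 and 0.53 (SE 0.57 each) for TBI minus sham and TBI+CB minus TBI, and Crebl2 gave 0.29 (SE 0.59) for TBI+MT minus TBI. Among the kinases that act on CREB or on its coactivators (7 of 9 passing), Sik1, itself a CREB target that restrains the CRTC coactivators, gave 1.35 (SE 0.91) for TBI minus sham. Sik1 was above background on only 9 arrays, and gave -2.04 (SE 0.91) for TBI+MT minus TBI. At 4 h these were 1 of 4 arrays in TBI+MT, 3 of 4 in TBI and 1 of 4 in sham. Both of its folds thus do not compare measured levels. Camk1 gave -0.42 and 0.31 (SE 0.75 each) in these comparisons, and Rps6ka4 and Rps6ka3 gave 0.13 and -0.75 for TBI+CB minus TBI.

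The CREB target genes differed most between TBI and sham among the 10 lists, by the median. The lists were written with earlier results of these data known, so this rank is not independent evidence. Of the 14 that passed, 11 were higher in TBI at 4 h and 9 were over 2-fold higher, beside 69.1 and 15.9% of all probes. Their median was 1.18 beside 0.33. Of the 12 above background on all arrays of both groups, 10 were higher and 8 over 2-fold higher, also with a median of 1.18. The immediate early gene Fos was at 37.1 and 25.9 in TBI pools, against 1.83 and 12.99 in sham pools (2.67, SE 1.05, unadjusted p = 0.0257 and adjusted p = 0.936). Egr1, an immediate early gene that the study also listed on these samples, was at 185 and 283 in TBI pools and 49.4 and 46.6 in sham pools (2.26, SE 0.98). Rgs2, a regulator of G protein signaling, was at 92.3 and 175 in TBI pools and 23.0 and 30.7 in sham pools (2.26, SE 0.98). These 3 genes were named by their p or after their values were seen. Their TBI pools lay wholly above their sham pools, which was so of 36.4% of all probes. Of all 14 targets, 4 had an unadjusted p under 0.05 by limma, beside 3.34% of all probes. Of the 12 above background on all arrays of both groups, 3 had. Gem, a small GTPase, was at 2.30 and 4.23 in TBI pools and 0.86 in pool 1 of sham. It was not above background in pool 2 of sham (measured signal 0.45), so no fold is given. Fos, Egr1 and Rgs2 are activity-dependent genes that other transcription factors also control. The study also listed the targets Sst and Nr4a1 on these samples, so the direction of these genes and of Egr1 is not independent evidence. Penk, which encodes the enkephalin precursor, was at 4.73 in pool 1 of TBI, against 5.58 and 5.19 in sham pools, and was not above background in pool 2 of TBI (measured signal 0.16).

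In TBI+MT minus TBI at 4 h, 13 of the 14 targets were below 0, where 29.6% of all probes were above 0. Of the 14, 8 were over 2-fold lower, beside 25.1% of all probes. Their median was -1.28 beside -0.40. Of the 10 above background on all arrays of both groups, all 10 were below 0 and 5 were over 2-fold lower, with a median of -1.01 and an unadjusted p under 0.05 for none, by limma. Sst (somatostatin) was at 0.73 in pool 2 of TBI+MT, against 1.91 and 1.74 in TBI pools, and was not above background in pool 1 of TBI+MT (measured signal 0.34). It is also a marker of interneurons, whose 6 passing markers, Sst included, summed to 79.4 to 82.8 in TBI+MT and 94.9 to 136 in TBI pools. Sst, Gem and Dusp1 had an unadjusted p under 0.05, 3 of 14, beside 4.73% of all probes, and all 3 were below background on at least 1 array of TBI+MT. Fos was at 8.20 and 13.98 and Egr1 at 47.9 and 119 in TBI+MT pools, below both TBI pools. In TBI+CB minus TBI the targets' median was -0.35 beside -0.28, and 1 of 14 was over 2-fold lower, beside 15.9% of all probes. Fos was at 51.4 and 60.9 in TBI+CB pools (0.85, SE 1.05), above both TBI pools. For TBI+MT minus TBI+CB the median of the targets was -0.95 beside -0.20 over all probes. In this comparison limma called none of the 14 (lowest adjusted p = 0.9995), with 2 at an unadjusted p under 0.05, beside 3.11% of all probes. Over the 10 of them above background in both groups the median was -0.74. At 24 h TBI minus sham had a median of 0.02 over the targets, with 7 above and 7 below 0.

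The counts of targets over 2-fold moved with the scaling and with single pools. For TBI minus sham 9 of 14 became 4 after quantile normalization, 10 without pool 1 of TBI and 6 without pool 2. For TBI+MT minus TBI 8 became 5 after quantile normalization, 4 without pool 1 and 10 without pool 2 of TBI+MT. Only Egr1, Nr4a2, Nr4a3, Scg2 and Vgf were above background on all 32 arrays, and among them the counts were 3 and 2. The sign of the list median was the same in all of these. For TBI minus sham the median of all probes was also above 0. It was 0.03 after quantile normalization, 0.52 without pool 1 and 0.20 without pool 2 of TBI. Shares of all probes over 2-fold were not set beside these counts, so the counts alone are no result about the targets.

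**Figure D4:**
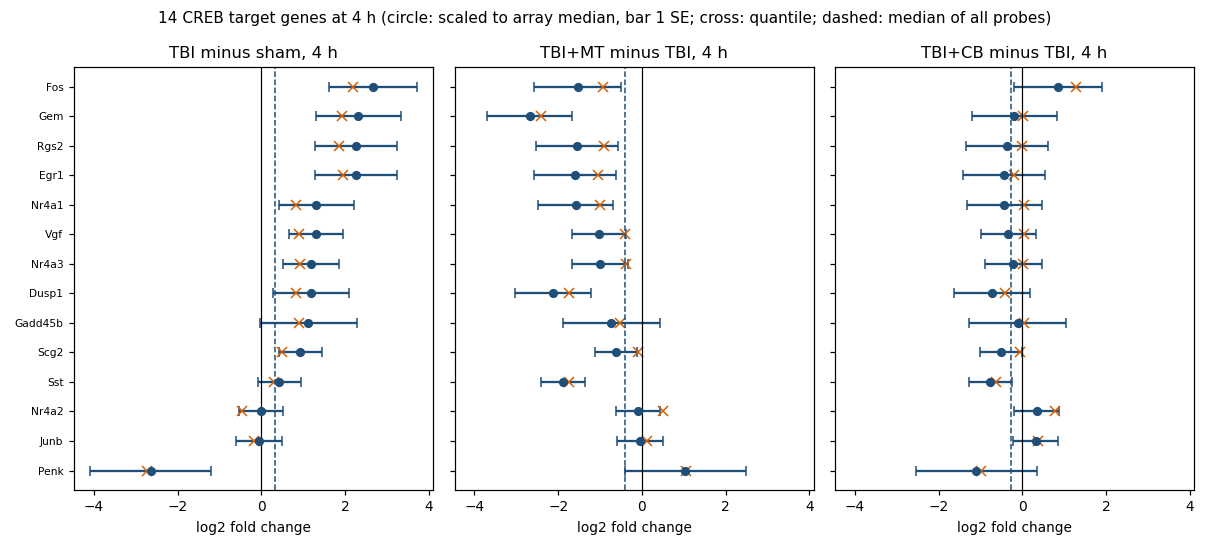
Log2 fold change at 4 h of the 14 CREB target genes that passed the filter (circles, 1 SE as bars; crosses, after quantile normalization; dashed line, median of all probes), ordered by TBI minus sham. Fos, Rgs2 and Egr1 lie above 2 for TBI minus sham, Gem and Penk there rest on a pool below background, and none of the 14 was called in any panel.

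The genes whose pattern over the 16 pools was most like that of a member were found by Pearson correlation of log2 levels, as a description. For Akap10 they were Strn (r = 0.947), Sgms1 (0.918) and Pafah1b3 (0.917). For Pde4b they were Rbm22 (0.983), Ets2 (0.982) and Stx7 (0.981), and for Adcy2 they were Ehbp1l1 (0.947), B4galt3 (0.941) and Hpf1 (0.941). Among the members, Pde4b and Prkar1a were most alike (r = 0.888, and 0.893 after quantile normalization), whereas Pde4b and Adcy2 correlated at 0.884 and 0.662 and Prkar1a and Akap4 at 0.845 and 0.242. All these points share the brightness and RNA quality of their pool: pool 1 of TBI+MT at 24 h was the lowest for 7 of the 9 member probes and pool 2 of TBI at 4 h the highest for 5.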

How the data were processed

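RNA of CA3 neurons in 16 pools was measured on 32 one-colour CodeLink rat arrays, and the groups were taken from the sample labels. Per the file headers, the deposited spot intensity comes from the CodeLink software and its normalized column is the raw column over the array's own median. The processed intensity of the authors holds the same values times 1.01 to 1.03 per array, floored at 0.01, and served as an alternative. Raw intensity over the median was floored at 0.1 and log2-transformed, without spots marked irregular or masked, and duplicates were averaged (median r = 0.975, against 0.873 between the 2 pools of a group). Of 33849 probes, 16878 carry 1 gene symbol in the platform annotation, 182 several and 16789 none, and 16834 matched RefSeq by gene number. limma 3.58.1 in R 4.3.3 fitted the 17635 probes kept in all 8 groups (8 residual and 3.88 prior degrees of freedom), and the fit was tested on simulated data. Per the methods the 2 pools of a group are biological replicates made from different rats, so p-values measure the spread between pools of rats, and their number limits the precision. A gene is given by its probe of highest mean level. Named are all members, the gene of each list with the smallest p on each side in TBI minus sham and each drug minus TBI at 4 h, any gene called, and the 3 genes most correlated with each of the 3 members with the smallest F p. The CREB targets Egr1, Rgs2, Gem and Dusp1, and further values of genes so named, were added after their values were seen. Nr4a1 is named only because the study listed it, and Nr4a2, Nr4a3, Scg2 and Vgf only as targets above background on all arrays. The members and the lists, written from general knowledge, were chosen with earlier results of these data known. The alternatives cover scaling, processed values, floor, filters, spots, duplicates, groups in the fit, variance trend, slide run, replicate number and left-out pools, and leaving out the 2 dimmest or 3 brightest pools was added after seeing the data. Taking slide numbers for runs is an assumption.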

Additional observations from a re-analysis of the deposited data

How the results depend on the processing

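No probe was called in any comparison at the stated settings, where between 325 and 1447 probes per comparison had an unadjusted p under 0.05, and none of the 9 member probes was called under any of the 31 alternatives. With 2 pools per group the SE of a member was 0.58 to 1.05 on the log2 scale in a comparison between 2 groups, which limits what could be called. Over all probes, TBI+CB minus TBI at 24 h gave 2 calls with quantile normalization, 2 with the floor at 0.05, 1 with the floor at 0.2, 1 with no filter, 2 with the variance trend, 1 with array a only, 4 with array b only and 7 without the 2 dimmest pools. TBI minus sham gave 2 calls at 24 h with array a only, 1 at 4 h with array b only, 2 at 4 h with only groups of the same time and 56 at 4 h without the 3 brightest pools. TBI+MT minus TBI gave 2 calls at 24 h with array a only, and at 4 h 49 with the slide run block and 1 without the 3 brightest pools. TBI+CB minus TBI at 4 h gave 1 with the slide run block. TBI+MT minus TBI+CB gave 1 at 4 h and 3 at 24 h with array b only, and the test over the 8 groups gave 1 with array b only and 1 without the 3 brightest pools. For the differences between the times, quantile normalization gave 1 for TBI+CB minus TBI, and leaving out the 3 brightest pools gave 1 for TBI minus sham, 1 for TBI+MT minus TBI and 3 for TBI+CB minus TBI. Leaving out 1 pool at a time gave 0 to 47 calls for TBI minus sham at 4 h and 0 to 49 for TBI+MT minus TBI at 4 h, the highest of both without pool 1 of TBI. It gave 0 to 1 for TBI+CB minus TBI at 4 h, 0 to 15 for TBI+CB minus TBI at 24 h (15 without pool 1 of TBI+CB), 0 to 1 for TBI+MT minus TBI+CB at 24 h and 0 to 1 for TBI minus sham at 24 h minus 4 h. The causes were not tested. Of 1706 values of the 7 genes in the 8 comparisons under the alternatives, 76 changed sign and 78 moved by more than the spread between pools. Among values beyond their SE, 2 of 459 changed sign: Adcy9 in TBI+MT minus TBI at 4 h without pool 2 of TBI (-0.24) and Pde4b in TBI+MT minus TBI+CB at 24 h without pool 1 of TBI+MT (0.15). The 1706 and the 459 include values that could not move. Such were those with the variance trend, with only groups of the same time, or without a pool of a group outside the comparison. These counts thus do not measure how stable the values are.

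Same-numbered pools did not deviate together consistently. Correlations between groups ran from -0.566 (sham and TBI+MT at 24 h) to 0.559 (TBI+MT at 4 h and at 24 h). The numbers were therefore not taken as pairs, and the fit with the replicate number as a block gave 0 calls in every comparison.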
